A study of Mus musculus with 18 samples.

Results

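Melanocyte lineage genes were followed in T cells obtained by flow sorting from mouse melanomas of the line B16f10-OVA, which carries ovalbumin. The 10 genes were Mlana, Pmel, Tyr, Tyrp1, Dct, Sox10, Mitf, Slc45a2, Slc24a5 and Gpnmb. They were chosen by name as markers of the melanocyte lineage, with earlier results of these data known, and are 10 of the 49671 gene models counted. All 10 were found once by symbol, and all 10 passed the filter on low counts and were tested. In a T cell sort they serve as a measure of melanoma RNA carried along with the sorted cells.

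The tumors had grown for 12 days in B6 mice, and CD8+ and CD4+ T cells were sequenced separately. All mice carried a floxed miR-155 gene. Floxed mice had no Cre ("floxed" here), and deficient mice also had CD4cre, a Cre driven by the Cd4 promoter, which is active in developing T cells of both lineages ("deficient" here). A further group of deficient mice received immune checkpoint blockade (ICB), that is anti-CTLA-4 together with anti-PD-1/PD-L1 antibody, on days 3, 6 and 9 ("treated" here). Ages are not in the labels. Each cell type had 3 libraries per condition, 18 in all, and each library pooled cells of 2 to 3 tumors from separate mice before sorting. The p-values below therefore measure the spread between pools. Neither B16 cells alone nor a floxed group under blockade was analysed here, so no level could be converted into a share of melanoma cells, and the blockade was compared in deficient cells alone.

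Melanocytes make pigment in melanosomes, organelles in which tyrosinase and its relatives turn tyrosine into melanin on a fibrous scaffold. SOX10 activates the gene of MITF, and MITF in turn activates the pigment genes through a short promoter element called the M-box. B16 cells are pigmented melanoma cells that keep this programme. T cells do not make melanosomes, while GPNMB and MITF are also made by macrophages, osteoclasts and other cells.

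The promoter windows that hold the core of the M-box are given here, since MITF acts on pigment genes through this element. A window of Mitf with a cyclic AMP element is added. The RefSeq promoter table (GRCm38.p6, 250 bases before to 50 after each start) had entries for 6 of the 10 genes, with 3 starts for Mitf. The search covered TCATGTG (M-box core), CATGTG (the shorter E-box inside it), CACGTG (another E-box) and TGACGTCA (a cyclic AMP element), each on both strands. The core was found in 4 genes, namely Tyr, Tyrp1, Dct and Slc24a5, and in 3.77% of all 32851 promoter entries. CATGTG, which the core contains, was held by 14.2% of all entries and by the same 4 genes. CACGTG was held by 7.15% of entries and by none of these genes, and TGACGTCA by 1.79% of entries and by the third Mitf start, and this last motif was chosen after the promoter sequences were seen. A match is a description of the letters and no evidence of binding. Capitals mark the matched motif, on either strand, and each sequence runs along the strand of its gene.
Tyr, chr7:87493513-87493612, minus strand: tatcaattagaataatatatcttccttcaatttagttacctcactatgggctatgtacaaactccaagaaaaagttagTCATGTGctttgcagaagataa
Tyrp1, chr4:80834154-80834183, plus strand: gtggggagggagTCATGTGctgcctagtag
Dct, chr14:118052377-118052496, minus strand: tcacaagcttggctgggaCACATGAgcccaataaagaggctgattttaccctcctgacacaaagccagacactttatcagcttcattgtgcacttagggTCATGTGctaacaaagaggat
Slc24a5, chr2:125068027-125068123, plus strand: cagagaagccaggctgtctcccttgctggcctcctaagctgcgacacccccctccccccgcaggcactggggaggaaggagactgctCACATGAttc
Mitf (the third start), chr6:97991583-97991682, plus strand: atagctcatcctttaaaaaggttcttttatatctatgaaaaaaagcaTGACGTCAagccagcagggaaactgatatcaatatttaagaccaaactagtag

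Positions are counted from the RefSeq start, with -1 as the base before it. The core lies at -22 to -16 in Tyr, at -47 to -41 in Tyrp1 and at -13 to -7 in Slc24a5. Dct has it at -232 to -226 and again at -151 to -145. The cyclic AMP element of Mitf lies at -153 to -146. For Tyrp1 the gene model of the count files begins 90 bases upstream of the RefSeq start, so a window of 30 bases is printed. Gpnmb had an entry without any of these motifs, and Mlana, Pmel, Sox10 and Slc45a2 had no entry in the table.

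Total counts per library ran from 3.2 to 11.6 M. Mir155hg, the host transcript of the deleted miRNA, was at 4.88 to 20.5 CPM (reads scaled to a common library total) in the 6 floxed libraries and at 0 to 1.9 CPM in the 12 others. Cd4 was at 0 to 3.14 CPM in CD8 libraries and 233 to 1090 CPM in CD4 libraries. Cd8a was at 624 to 1450 CPM in CD8 libraries, and in CD4 libraries at 14.6 to 150 CPM (floxed), 0.136 to 0.283 CPM (deficient) and 1.83 to 17.5 CPM (treated). A panel of 12 general T cell genes summed to 2900 to 5800 CPM in every library. Ribosomal models took over 5% of counts in floxed CD8 library 1 (5.82%), treated CD8 library 2 (25.6%) and deficient CD4 library 3 (11.9%). Levels below are CPM with TMM scaling, which sets a scale factor for each library and does not remove RNA of cells carried along.

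Melanocyte transcripts were present in every library and had their highest group means in deficient mice. The 10 genes summed to 163, 158 and 199 CPM in floxed CD8 libraries 1, 2 and 3. The sums were 3200, 3130 and 1400 CPM in the deficient and 365, 488 and 1730 CPM in the treated CD8 libraries. All deficient CD8 libraries lay above all floxed ones, and the lowest of them was 7.06 times the highest floxed library. Treated libraries also lay above the floxed ones, and their highest overlapped the deficient range.

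By the sum of the 10 genes, CD4 libraries held a similar amount. The CD4 sums were 665, 176 and 160 CPM in floxed, 4430, 3780 and 1870 CPM in deficient and 630, 446 and 2020 CPM in treated mice. Deficient libraries again lay above all floxed ones, by at least 2.8 times, while treated libraries overlapped both other groups. The group means for CD8 cells were 173.3 ± 22.4 CPM (floxed), 2577 ± 1020 CPM (deficient) and 861 ± 755 CPM (treated; SD, n = 3 each). For CD4 cells they were 333.7 ± 287, 3360 ± 1330 and 1032 ± 861 CPM. The deficient mean was 14.9 times the floxed mean in CD8 and 10.1 times in CD4 cells, and 2.99 and 3.25 times the treated mean. Single libraries weighed heavily on 3 of these means: without library 1 the floxed CD4 mean was 167.9 CPM, and without library 3 the treated means were 426.2 CPM (CD8) and 538.3 CPM (CD4). Without Gpnmb and Mitf the floxed mean was 188.5 ± 254 CPM in CD4 and 131.3 ± 7.09 CPM in CD8 cells (SD, n = 3 each). In these bulk samples, fewer melanoma cells and less RNA per melanoma cell cannot be told apart.

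**Figure D1:**
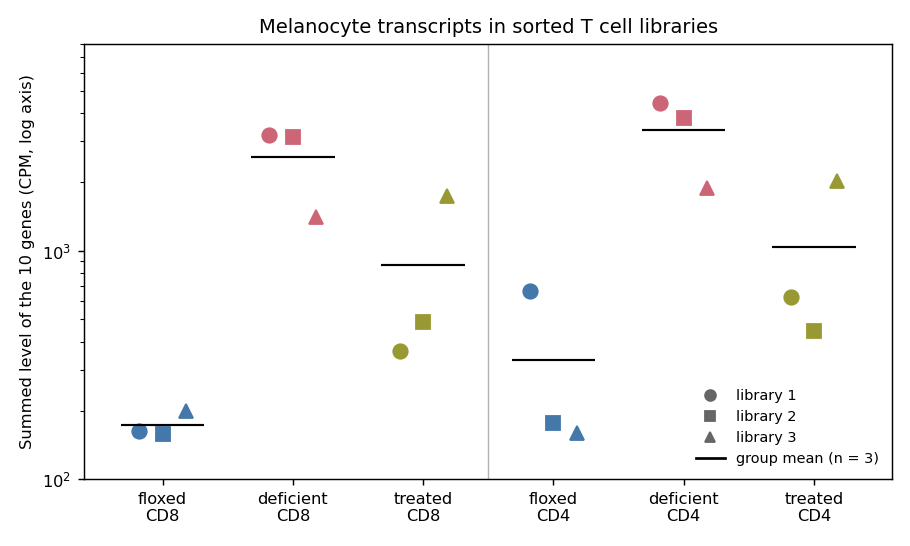
Summed level of the 10 melanocyte genes in each library (points, CPM on a log axis, marker shape gives the library number) with the mean of each group of 3 (line), for CD8 cells on the left and CD4 cells on the right. Deficient libraries, at 1400 to 4430 CPM, lie above every floxed library, and library 3 is the low one in both deficient groups and the high one in both treated groups.

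CD8 and CD4 libraries of the same condition and number resembled each other in deficient and treated mice. Library 3 was the lowest deficient library in both cell types, and it was the highest treated library in both. The CD4 sum divided by the CD8 sum of the same number was 1.38, 1.21 and 1.33 in deficient and 1.73, 0.916 and 1.17 in treated mice. In floxed mice the ratios were 4.08, 1.11 and 0.806, and by this sum floxed CD4 library 1 was the one far from its CD8 counterpart. Without Gpnmb and Mitf, floxed libraries 1, 2 and 3 summed to 130, 125 and 139 CPM in CD8 cells. The matching CD4 sums were 482, 44.2 and 39.3 CPM, so that no floxed CD4 library was near its CD8 counterpart. Over all tested genes, treated CD8 and CD4 libraries of equal number deviated together from their group means (r = 0.103 to 0.289), and so did deficient ones (r = 0.0934 to 0.164). Floxed libraries hardly did so (r = 0.00349 to 0.0876). The labels do not say whether CD8 and CD4 cells of one number came from the same tumors.

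Relative to the T cell panel, the 10 genes reached nearly equal weight in the richest libraries. Their sum divided by that of the 12 T cell genes was 0.0303 to 0.0488 in floxed CD8, 0.41 to 0.897 in deficient CD8 and 0.0666 to 0.326 in treated CD8 libraries. It was 0.0405 to 0.146, 0.373 to 1.04 and 0.0784 to 0.391 in the CD4 groups. By this measure, too, deficient libraries lay above all floxed ones in both cell types, and above all treated ones in CD8 cells. In CD4 cells deficient library 3 (0.373) lay below treated library 3 (0.391).

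The melanin enzymes were among the strongest signals. Tyrp1 encodes an enzyme that stabilises tyrosinase and acts late in melanin synthesis (ENSMUSG00000005994, chr4:80834123-80851719, plus strand). It was at 51.2, 49.6 and 31.9 CPM in floxed CD8 libraries 1 to 3, at 1040, 988 and 409 in deficient and at 112, 149 and 548 in treated ones. In CD4 libraries it was at 174, 18 and 15.7 CPM in floxed, 1480, 1170 and 647 in deficient and 175, 138 and 686 in treated mice. The deficient libraries did not overlap the floxed ones in either cell type. Dct, the dopachrome tautomerase (ENSMUSG00000022129, chr14:118012792-118052246, minus strand), was at 23.8, 26.6 and 46.5 CPM in floxed, 702, 641 and 300 in deficient and 63.9, 79 and 364 in treated CD8 libraries. Its CD4 levels were 105, 8.24 and 11.9, then 933, 779 and 368, then 108, 80.1 and 420 CPM. Tyr, the tyrosinase that starts melanin synthesis (ENSMUSG00000004651, chr7:87424771-87493512, minus strand), had fewer counts, from the longest of the 10 gene models. Its CD8 means were 5.59 ± 2.86 (floxed), 73.8 ± 26.3 (deficient) and 27 ± 20.1 CPM (treated), and its CD4 means 6.33 ± 9.24, 99.9 ± 42.8 and 34 ± 23.7 CPM (SD, n = 3 each).

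The melanosome proteins Pmel and Mlana followed the enzymes. Pmel, which forms the fibres on which melanin is laid down (ENSMUSG00000025359, chr10:128706258-128720238, plus strand), was at 42.5, 31.7 and 41.1 CPM in floxed CD8 libraries. It was at 689, 713 and 319 CPM in deficient and 81.3, 130 and 383 CPM in treated ones. In CD4 libraries Pmel was at 138, 12.5 and 5.23 CPM, then 1020, 910 and 424, then 148, 102 and 442 CPM. Floxed CD4 library 1 thus held more than 10 times the Pmel of each of the other two and reached the treated range. Treated library 3 reached the deficient range in both cell types. Mlana, a small melanosome membrane protein known as the antigen MART-1 (ENSMUSG00000024806, chr19:29697921-29708448, plus strand), was at 0.998 to 2.84 CPM in floxed CD8 and 20.5 to 50 CPM in deficient CD8 libraries. Floxed CD4 libraries held 10.1, 0.961 and 0 CPM of Mlana, where 0 counts allow up to 0.747 CPM (3 counts, counting error only), and deficient CD4 libraries 34.2 to 65.7 CPM. Treated libraries held 5.6 to 24.4 CPM in CD8 and 1.2 to 29.9 CPM in CD4 cells.

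Both pigment transporters showed the same pattern. Slc45a2, a transporter that controls melanosome acidity (ENSMUSG00000022243, chr15:11000721-11029233, plus strand), had CD8 means of 6.39 ± 1.71 (floxed), 89 ± 41.5 (deficient) and 27.5 ± 26.6 CPM (treated). Its CD4 levels were 10.7 ± 14.4, 111 ± 55.1 and 35.3 ± 32.1 CPM (SD, n = 3 each). Slc24a5, a potassium-dependent sodium and calcium exchanger needed for pigmentation (ENSMUSG00000035183, chr2:125068124-125088677, plus strand), was at 0.855, 1.86 and 0.89 CPM in floxed, 60.9, 50.1 and 27.4 in deficient and 4.13, 2.9 and 23.2 in treated CD8 libraries. In CD4 libraries Slc24a5 was at 6.06, 1.24 and 0.498 CPM, then 75.4, 55.5 and 30, then 8.9, 0.904 and 27 CPM. All treated libraries lay below all deficient ones for Slc24a5, in both cell types, though treated library 3 missed the deficient range only narrowly.

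The lineage factors Sox10 and Mitf differed from each other. Sox10 (ENSMUSG00000033006, chr15:79154913-79164490, minus strand) was at 1.14, 2.55 and 0.534 CPM in floxed, 20.9, 19.8 and 12.2 in deficient and 2.67, 2.9 and 10.8 in treated CD8 libraries. Its CD4 levels were 4.21, 0.549 and 1.99, then 26.6, 24.9 and 12.2, then 5.93, 2.11 and 12.7 CPM. Mitf, the master factor of the lineage (ENSMUSG00000035158, chr6:97807052-98021349, plus strand), was at 8.27, 13.2 and 24.4 CPM in floxed, 117, 116 and 59.3 in deficient and 17.6, 17.4 and 67.4 in treated CD8 libraries. Floxed CD4 libraries, however, already held 46.1, 41.6 and 76.6 CPM of Mitf, against 135, 109 and 73.2 in deficient and 24, 34 and 81.7 in treated ones. Mitf was the only one of the 10 genes whose floxed and deficient CD4 libraries overlapped.

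Gpnmb, a melanosome glycoprotein that macrophages also make (ENSMUSG00000029816, chr6:49036546-49070929, plus strand), shared this feature in part. It was at 24.4, 19.7 and 35.6 CPM in floxed, 305, 360 and 168 in deficient and 56.2, 61.7 and 204 in treated CD8 libraries. Floxed CD4 libraries held 137, 89.8 and 44.3 CPM, deficient ones 402, 417 and 178 and treated ones 104, 58.7 and 192 CPM. The floxed CD4 libraries thus lay within or near the treated range, unlike those of the enzymes in libraries 2 and 3.

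**Figure D2:**
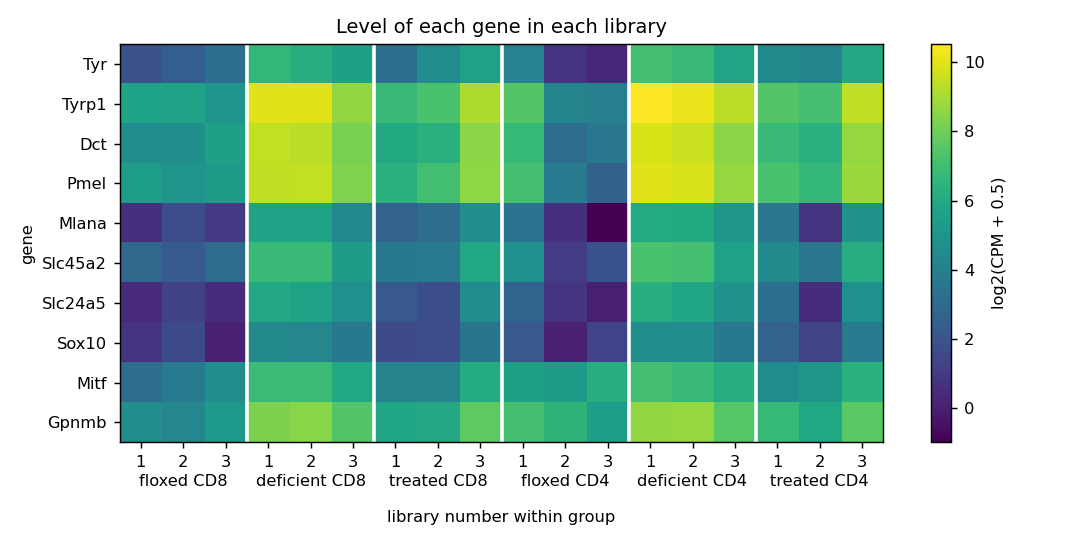
Level of each gene (rows) in each library (columns, 3 per group) as log2(CPM + 0.5). Libraries 1 and 2 of both deficient groups are brightest for every gene, and in floxed CD4 libraries 2 and 3 only Mitf (41.6 and 76.6 CPM) and Gpnmb (89.8 and 44.3 CPM) stay above 20 CPM.

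Levels can be compared between genes only per length, here as CPM per kilobase of exon in the gene model. In deficient CD8 cells Tyrp1 (287 ± 124), Pmel (269 ± 104) and Dct (242 ± 95.8) led, followed by Mlana (64.2 ± 27.1), Gpnmb (42.6 ± 15.2), Slc45a2 (29.8 ± 13.9), Slc24a5 (19.8 ± 7.33), Mitf (15.8 ± 5.35), Tyr (10.4 ± 3.7) and Sox10 (6.5 ± 1.74; SD, n = 3). The order was the same in deficient CD4 cells, from 389 ± 149 for Tyrp1 to 7.82 ± 2.91 for Sox10. For neighbours in this order, the ranges of mean ± SD, the spread between libraries, overlapped in both cell types, except those of Dct and Mlana. That spread does not describe the order within a library. Mlana stood above Gpnmb in every deficient library, while Pmel stood above Tyrp1 in deficient CD8 library 3. By group mean, Tyrp1, Pmel and Dct were also the leading 3 in each other group. Gene models that join all exons of a gene understate genes with long alternative ends, and Tyr (7108 bases), Gpnmb (6514 bases) and Mitf (6196 bases) had the longest models. In floxed CD4 cells Gpnmb (13.9 ± 7.14) and Mitf (8.84 ± 3.08) came next by mean after Tyrp1 (24.5 ± 32.1), Pmel (24.4 ± 35.1) and Dct (18.5 ± 24.3). Those 3 leading means rested on library 1, and per length Gpnmb and Mitf led in floxed CD4 libraries 2 and 3.

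The first comparison set deficient against floxed cells. All 10 genes rose in deficient CD8 cells (adjusted p from 0.00331 to 0.0234, edgeR's quasi-likelihood test, Benjamini-Hochberg adjusted over 14080 genes), where 9.65% of all tested genes were called higher. The groups did not overlap for any of the 10, against 17.8% of all tested genes that lay wholly higher. Slc24a5 had a log2 fold change of 5.16 ± 1.1 (SE) and Mlana one of 4.42 ± 1.11. Tyrp1, Dct, Pmel, Slc45a2 and Tyr had 4.19 ± 1.05, 4.1 ± 1.08, 3.9 ± 1.05, 3.83 ± 1.05 and 3.76 ± 0.93. Sox10, Gpnmb and Mitf had 3.53 ± 0.74, 3.4 ± 0.66 and 2.7 ± 0.64. The median over the 10 genes was 3.87, and that over all tested genes was -0.01. Calls depended on the libraries: leaving out floxed library 1 left 4 genes called, floxed library 2 left 6 and deficient library 1 left 7, while 8 to 10 were called without each of the others. Tyrp1, Sox10, Slc24a5 and Gpnmb were called whichever of the 6 libraries was left out. Without the 3 libraries rich in ribosomal counts, 3 genes were called, namely Sox10, Slc24a5 and Gpnmb, and the median was 3.93. Other cell types moved as well: 6 of 19 tested macrophage markers and 5 of 10 dendritic cell markers rose, 1 macrophage marker fell, and 5 of 12 T cell genes fell (median log2 fold change -0.32). In this comparison 9.61% of all tested genes were called lower. The part of these cell types in the result was not tested.

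In CD4 cells 7 of the 10 genes rose with the deletion by the same test, where 4.61% of all tested genes were called higher. Slc24a5 had a log2 fold change of 4.32 ± 1.03 (adjusted p = 0.0166), Dct 4.04 ± 1.07, Tyrp1 3.98 ± 1.04, Tyr 3.95 ± 0.94, Pmel 3.9 ± 1.05, Mlana 3.83 ± 1.05 and Sox10 3.27 ± 0.74 (adjusted p = 0.00858). Slc45a2 (3.37 ± 1.02, adjusted p = 0.0513), Gpnmb (1.87 ± 0.61, adjusted p = 0.0692) and Mitf (0.97 ± 0.59, adjusted p = 0.357) were not called. The groups did not overlap for 9 genes, all but Mitf, against 13.2% of all tested genes. The median was 3.87, as in CD8 cells, against 0.01 over all tested genes. These calls rested on few libraries: 0 genes were called without floxed library 3, 1 without floxed library 2, 1 without deficient library 1 and 3 without deficient library 2. Without floxed library 1, the one rich in melanocyte transcripts, 8 were called and the median was 5.88. A fit of CD4 libraries alone called 2 genes (Sox10 and Slc24a5), and 3 were called without the ribosomal libraries. No gene changed sign in any of these fits.

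**Figure D3:**
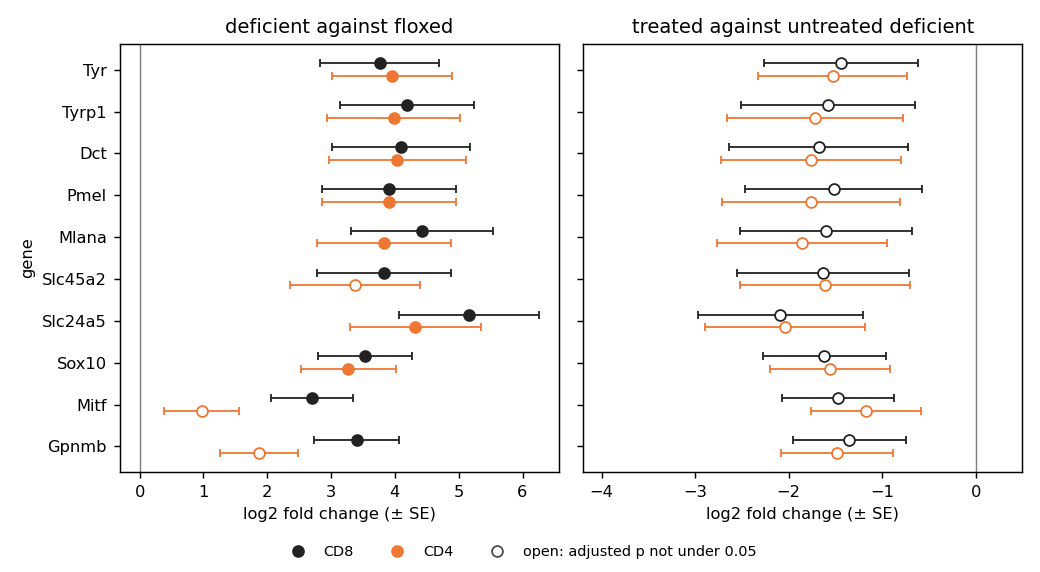
Log2 fold change ± SE of each gene for deficient against floxed cells (left) and for treated against untreated deficient cells (right), in CD8 (black) and CD4 cells (orange), where filled points have an adjusted p under 0.05. CD8 and CD4 values lie close together except for Mitf (2.7 and 0.97) and Gpnmb (3.4 and 1.87) on the left, and all blockade values on the right are negative and open.

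The difference between the deletion effects in CD8 and CD4 cells was tested directly. It called 0 of the 10 genes by edgeR's quasi-likelihood test, where 11.6% of all tested genes were called in either direction, and 0 had an unadjusted p under 0.05. DESeq2 and limma voom also called 0. None of these fits paired CD8 with CD4 libraries of one number. With such a block, added later, edgeR called Mitf, as given in the closing section. For Mitf the deletion effect was larger by 1.73 ± 0.85 in CD8 cells (adjusted p = 0.239), and for Gpnmb by 1.53 ± 0.86 (adjusted p = 0.317). The median difference of 0.37 over the 10 genes turned to -1.81 without floxed CD4 library 1 and to -0.66 with limma voom.

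The second comparison set treated against untreated deficient cells. All 10 genes had lower mean levels after treatment in both cell types, and 0 were called. In CD8 cells the log2 fold changes ran from -2.09 ± 0.88 for Slc24a5 to -1.35 ± 0.6 for Gpnmb, with a median of -1.59 against -0.03 over all tested genes. The adjusted p was 0.118 to 0.327 (edgeR's quasi-likelihood test, Benjamini-Hochberg adjusted), where 5.53% of all tested genes were called lower. An unadjusted p under 0.05 was reached by 4 genes, DESeq2 called 0 and limma voom called 7. The share of all tested genes called lower by limma voom is not given here. Sox10 and Slc24a5 did not overlap between the groups, against 22.1% of all tested genes that lay wholly lower. Treated library 3 stood out: without it 4 genes were called and the median was -2.61. In the same comparison 13 of 19 macrophage markers and 6 of 10 dendritic cell markers fell, while 2 macrophage markers and 5 of 12 T cell genes rose, where 8.25% of all tested genes were called higher. On the macrophage list Ccr2, Ctsd, Ly6c2 and Spp1 had higher means in treated CD8 cells, and Lyz2, Csf1r, Adgre1 and C1qa lower ones. The part of these cell types in the result was not tested.

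In CD4 cells the blockade values ran from -2.04 ± 0.86 for Slc24a5 to -1.17 ± 0.59 for Mitf, with a median of -1.67 against -0.01 over all tested genes. The adjusted p was 0.366 to 0.536 by edgeR's quasi-likelihood test, where 0.0568% of all tested genes were called lower. An unadjusted p under 0.05 was reached by 3 genes, and DESeq2 and limma voom called 0. Mlana and Slc24a5 did not overlap, against 9.9% of all tested genes. Without treated library 3 the median was -2.61, with 0 genes called. For the difference of the blockade effects between CD8 and CD4 cells, 0 genes were called (0.803% of all tested genes in either direction), 0 had an unadjusted p under 0.05, and DESeq2 and limma voom called 0. Its median of 0.09 took values from -1.02 (without treated CD8 library 3) to 1.02 (without treated CD4 library 3).

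Treated deficient cells were also set against floxed cells, which serve as controls in the deletion comparison too, so that these comparisons share libraries. The log2 fold changes in CD8 cells ran from 1.23 ± 0.63 for Mitf to 3.07 ± 1.11 for Slc24a5, with a median of 2.35. By edgeR's quasi-likelihood test 0 genes were called (adjusted p from 0.0825 to 0.279), where 2.69% of all tested genes were called higher. An unadjusted p under 0.05 was reached by 8 genes, DESeq2 called 2 and limma voom 0. All genes but Mitf, 9 in number, did not overlap, against 13.6% of all tested genes, and the median was 1.29 without treated library 3. In CD4 cells the values ran from -0.21 ± 0.59 for Mitf and 0.39 ± 0.6 for Gpnmb to 2.41 ± 0.92 for Tyr, with a median of 2.06 and 0 genes called (adjusted p from 0.115 to 0.883, edgeR's quasi-likelihood test). The background was 4.08% called higher, 5 genes had an unadjusted p under 0.05, DESeq2 called 0 and limma voom 2. Tyr alone did not overlap, against 12.3% of all tested genes. Without floxed CD4 library 1 the median was 4.16 and 4 genes were called (Pmel, Tyr, Tyrp1 and Dct), and without treated CD4 library 3 the median was 1.04. The small values of Mitf and Gpnmb changed sign when single CD4 libraries were left out.

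Between the cell types, Gpnmb and Mitf were lower in CD8 than in CD4 cells of floxed mice, and no other gene of the 10 was called. Gpnmb had a log2 fold change of -1.79 ± 0.64 (adjusted p = 0.0407) and Mitf one of -1.85 ± 0.63 (adjusted p = 0.0335, edgeR's quasi-likelihood test). In this comparison 20.2% of all tested genes were called lower in CD8 cells. Neither value changed sign in any fit, but both calls were lost without floxed CD8 library 1, floxed CD8 library 2 or floxed CD4 library 1, and with total count scaling. The call of Gpnmb was also lost without floxed CD8 library 3 or floxed CD4 library 2, and that of Mitf without floxed CD4 library 3. Without the 3 libraries rich in ribosomal counts 0 were called. The median over the 10 genes was -0.72, but it was 1.44 without floxed CD4 library 1, which held 665 CPM of these transcripts. In deficient mice 0 genes were called between CD8 and CD4 cells (15.6% of all tested genes in either direction), with a median of -0.33. In treated mice 0 were called (20.4% of all tested genes), with a median of -0.29. In both, 0 genes had an unadjusted p under 0.05 by edgeR's quasi-likelihood test, and DESeq2 and limma voom called 0. These fits did not pair CD8 with CD4 libraries of one number. The median for treated mice was 0.66 without treated CD4 library 3 and -1.37 without treated CD8 library 3.

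Tyrp1, Pmel and Dct kept similar shares of the melanocyte counts outside the floxed libraries, and the shares of the other genes varied more relative to their means. Over the 12 deficient and treated libraries, Tyrp1 gave 31.5 ± 1.96% of the counts of the 10 genes, Pmel 23 ± 1.36%, Dct 19.7 ± 1.93% and Gpnmb 11.8 ± 2.38% (SD, n = 12). Mitf gave 4.1 ± 1.22%, Slc45a2 3.21 ± 0.438%, Tyr 3.2 ± 0.662%, Mlana 1.48 ± 0.405%, Slc24a5 1.36 ± 0.513% and Sox10 0.672 ± 0.126%. The sums of these libraries ran from 365 to 4430 CPM, and the share of Tyrp1 from 27.7 to 34.7%. Slc24a5 ranged from 0.202 to 1.96%, Mlana from 0.27 to 1.83% and Mitf from 2.87 to 7.62%. Treated CD4 library 2 had the lowest share of Slc24a5 and Mlana and the highest of Mitf. Floxed CD8 libraries 1 and 2 had 31.4 and 31.5% of Tyrp1, within the range of those libraries. Library 2 lay above the range of those libraries for Mitf (8.4%, 95% Wilson interval 7.14 to 9.85%) and Sox10 (1.62%, 1.11 to 2.36%), and below it for Pmel (20.1%, 18.3 to 22.2%). Library 1 lay below the range for Dct (14.6%, 12.7 to 16.8%) and Tyr (1.92%, 1.27 to 2.89%), and above it for Slc45a2 (4.2%, 3.18 to 5.52%). Those ranges were 0.472 to 0.941% for Sox10, 21.5 to 26.7% for Pmel, 16.2 to 22% for Dct, 2.43 to 4.75% for Tyr and 2.55 to 3.61% for Slc45a2. Only the interval of Sox10 lay wholly outside its range, and those of Mitf, Pmel, Dct, Tyr and Slc45a2 reached into theirs. Floxed CD8 library 3 had less Tyrp1 (16.0%, 95% Wilson interval 14 to 18.3%) and more Mitf (12.3%, 10.5 to 14.3%), and its count of Dct was 1.46 times that of Tyrp1, against 0.529 to 0.733 in deficient and treated libraries. The intervals cover counting error only.

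Floxed CD4 libraries had another make-up. Gpnmb made up 20.6% (19.4 to 21.9%), 51.1% (48.4 to 53.9%) and 27.6% (24.3 to 31.2%) of their melanocyte counts in libraries 1, 2 and 3. Mitf made up 6.93% (6.18 to 7.76%), 23.7% (21.4 to 26.1%) and 47.8% (44 to 51.7%). Per count of Tyrp1, Gpnmb stood at 0.79, 4.99 and 2.83 and Mitf at 0.265, 2.31 and 4.89. In the 12 deficient and treated libraries these ratios were 0.271 to 0.598 and 0.0913 to 0.247. Library 1, which had the most melanocyte transcripts, was nearest to that range. Pmel per count of Tyrp1, by contrast, was 0.333 to 0.796 in floxed CD4 and 0.645 to 0.873 in deficient and treated libraries.

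**Figure D4:**
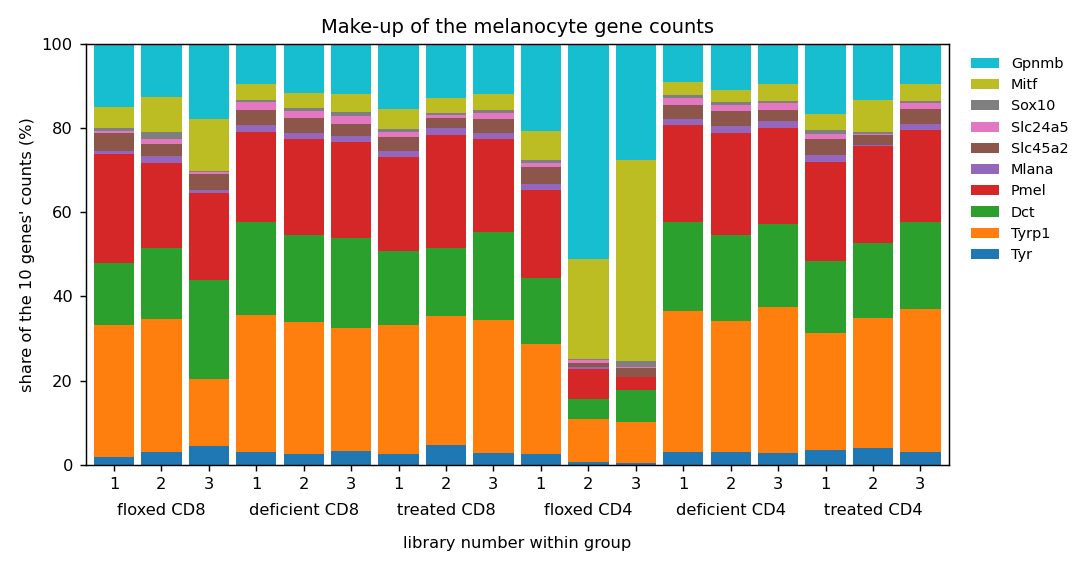
Share of each gene in the counts of the 10 genes (stacked bars, percent) for each library, 3 per group. Tyrp1, Pmel and Dct take similar parts of the bar in deficient and treated libraries, where Tyrp1 holds 27.7 to 34.7%. Gpnmb and Mitf fill most of the bar in floxed CD4 libraries 2 and 3.

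Markers of macrophages and monocytes were highest in the floxed CD4 libraries. Their 20 genes summed to 18900, 14100 and 28000 CPM in floxed CD4 libraries and to 1710 to 6960 CPM in all 15 others, and 0 of the 20 were at 0 in all libraries. Within the floxed CD4 libraries the 2 ratios to Tyrp1 differed in order. Library 2, with the lowest marker sum, had the highest Gpnmb ratio (4.99), and library 3, with the highest sum, the highest Mitf ratio (4.89). Library 1, with 18900 CPM, had the lowest ratios and the most Tyrp1 (174 against 18 and 15.7 CPM). The levels of Mitf (46.1, 41.6 and 76.6 CPM in libraries 1, 2 and 3) had the order of the marker sums. Those of Gpnmb (137, 89.8 and 44.3 CPM) did not. Lyz2, the lysozyme of macrophages and monocytes, was at 6780 CPM on average in floxed CD4 and at 139 to 1670 CPM in the other groups. Adgre1 (F4/80) was at 757 against 13.4 to 124 CPM, and C1qa, a complement subunit, at 1090 against 14.8 to 183 CPM. In treated CD8 libraries the sum was mainly Ly6c2, Ctsd, Ccr2 and Spp1 (735, 702, 616 and 364 CPM on average), with Lyz2 at 139 CPM. Ly6c2 was lower in floxed CD4 (326 CPM). The sum therefore did not follow Lyz2 in all groups. The 10 dendritic cell markers summed to 6290 to 14700 CPM in floxed CD4 and 272 to 4490 CPM in the other libraries. In floxed CD4 the sum was mainly Cd74, H2-Aa and H2-Ab1 (4300, 3220 and 2210 CPM on average). Flt3, Zbtb46, Cd209a, Ccr7 and Siglech had lower means in floxed than in deficient CD4 cells, while Xcr1 and Clec9a had higher ones. The median log2 fold change of the 10 in deficient against floxed CD4 cells was 0.4. In the CD4 deletion comparison 15 of 19 tested macrophage markers fell and 0 rose (edgeR's quasi-likelihood test, 7.06% of all tested genes called lower), with a median log2 fold change of -2.02. The part of these cells in the values of Gpnmb and Mitf was not tested.

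**Figure D5:**
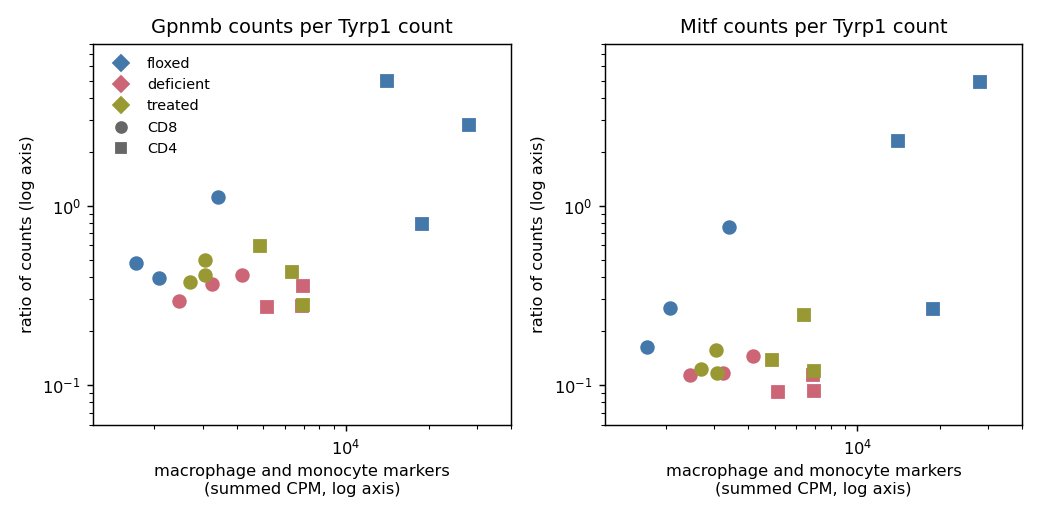
Counts of Gpnmb (left) and Mitf (right) per count of Tyrp1 against the summed level of 20 macrophage and monocyte markers (CPM), each library 1 point, both axes on a log scale. The 3 floxed CD4 libraries lie at the right with 14100 to 28000 CPM of markers, and libraries 2 and 3 of them have the highest ratios on both plots.

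Across the 18 libraries, 9 of the genes followed the summed level closely and Mitf did so least. Pearson's r between a gene's log2(CPM + 0.5) and log2 of the sum was 0.946 to 0.977 for the 9 genes other than Mitf, and 0.792 for Mitf. With the log2 sum of macrophage markers, r was 0.381 for Mitf and 0.133 for Gpnmb, and -0.306 to -0.109 for the others. In treated CD8 libraries that sum was mainly Ly6c2, Ctsd, Ccr2 and Spp1. Among pairs of genes, Dct and Slc45a2 (0.99) and Pmel and Tyr (0.988) had the highest r, and Pmel and Mitf the lowest (0.584). These are descriptions over libraries that share groups and depth, and the sum contains the genes themselves. Within a library all genes share that library's total.

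Further genes of the melanocyte programme were counted from a list of 32, of which 25 were tested. In CD8 cells 15 rose and 2 fell with the deletion (edgeR's quasi-likelihood test), where 9.65% of all tested genes were called higher and 9.61% lower, with a median log2 fold change of 2.86. The 6 with the smallest adjusted p were Tmem163, Bace2, Rab27a, Mlph, Rab38 and Oca2. Rab38, a GTPase that brings enzymes to melanosomes, rose by 4.45 ± 0.97 from 1.48 to 35 CPM. Mlph, which links melanosomes to their motor, rose by 3.6 ± 0.86 from 0.585 to 7.45 CPM, and Oca2, a melanosome membrane protein, by 4.46 ± 1.05 from 0.416 to 9.85 CPM. Bace2, a protease that cleaves PMEL, rose by 1.99 ± 0.4 from 7.4 to 29.8 CPM. The 2 genes that fell were Tmem163, a zinc transporter (-2.35 ± 0.3, from 40.8 to 8.01 CPM), and Rab27a (-0.83 ± 0.18, from 228 to 128 CPM), which acts in melanosome transport and also in the release of cytotoxic granules by T cells.

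In CD4 cells 12 of the 25 rose and 2 fell with the deletion, where 4.61% of all tested genes were called higher and 7.06% lower, with a median of 2.76. The 2 that fell were Ednrb, the endothelin B receptor (-4.1 ± 0.7, from 117 to 7.01 CPM), and Rab32, a GTPase (-1.53 ± 0.26, from 80.5 to 28 CPM), both named here after their values were seen. With the blockade 2 rose (Tmem163 and Rab27a) and 1 fell (Rab32) in CD8 cells, where 8.25% of all tested genes were called higher and 5.53% lower, with a median of -1.51. In CD4 cells 0 were called by edgeR's quasi-likelihood test, with 9 at an unadjusted p under 0.05 and a median of -1.11. The 7 listed genes that were not tested (Tfap2a, Sox9, Bcan, Fabp7, Gapdhs, Slc24a4 and Cspg4) had group means of 0 to 1.27 CPM.

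Outside the 10 genes, those whose log2 level over the 18 libraries followed the summed level most closely were taken from 10442 tested genes with a mean of at least 5 CPM. They were Met (r = 0.986), Syt4 (0.977), Serpinh1 (0.975), Trpm1 (0.974), Shc4 (0.97), Yap1 (0.969), Rab38 (0.968), Nrcam (0.967), Sox11 (0.962) and Insc (0.96). Met, Trpm1 and Rab38 also stand on the list of further melanocyte genes. Met, the receptor of hepatocyte growth factor, averaged 20.3 (floxed), 216 (deficient) and 68.3 CPM (treated) among CD8 libraries. Serpinh1, a collagen chaperone, averaged 4.56 (floxed), 65.4 (deficient) and 23.7 CPM (treated) among CD8 libraries and 4.32, 93.6 and 34.4 CPM among CD4 libraries. Nrcam, a cell adhesion molecule, had 3.43, 52.2 and 18.8 CPM, then 3.34, 60.9 and 23.4 CPM in the same order. Syt4, a synaptotagmin, had 7.69, 98.4 and 37.4 CPM, then 11.1, 111 and 44.3 CPM. They were picked for this likeness in the same libraries, so their test results are not given as further support. Met, Trpm1 and Rab38 are among the tested genes of the list above, where the value of Rab38 is given.

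Markers of further cell types were summed in the same libraries. Of 7 mast cell markers, 4 were at 0 in all libraries (Mcpt4, Cma1, Tpsb2 and Tpsab1), and the 7 summed to at most 1.81 CPM. Of 7 keratinocyte markers, 5 were at 0 in all libraries (Krt14, Krt5, Krt15, Dsg3 and Lor), and the sum was at most 1.24 CPM. The 7 Schwann cell markers, a lineage that also uses Sox10, summed to 142 to 271 CPM, nearly all from Mbp and Egr2, which lymphocytes also express. Their mean was 196.7 ± 15 CPM in deficient against 152.3 ± 8.08 CPM in floxed CD8 libraries (SD, n = 3 each), with 1 of 5 tested markers called higher, where 9.65% of all tested genes were. The 7 fibroblast markers summed to 0.392 to 166 CPM and were highest in library 2 of the treated groups (67.9 CPM in CD8, 166 CPM in CD4) and of the deficient groups (27.6 and 20.7 CPM). The 6 endothelial markers summed to 27.4 to 127 CPM, mainly Pecam1, which leukocytes also carry. Their means were 30.07 ± 3.4 (floxed), 77.87 ± 10.4 (deficient) and 34.83 ± 2.97 CPM (treated) in CD8 cells and 90.87 ± 19.4, 123 ± 4.58 and 110.3 ± 6.81 CPM in CD4 cells (SD, n = 3 each), the same order as the means of the 10 genes. With the deletion 1 of 2 tested endothelial markers rose in each cell type, where 9.65% (CD8) and 4.61% (CD4) of all tested genes were called higher. The part of these cells in the result was not tested.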

How the data were processed

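RNA was sequenced from 18 libraries of sorted T cells. The authors deposited raw read counts for each gene model in a separate file per library, made with featureCounts 1.5.1 on the Ensembl release 87 annotation with the strand option at 2, per the file headers. STAR, featureCounts, DESeq2 and GRCm38 are named in the submitters' processing notes. Symbols came from GENCODE M21 and were found for 49326 of 49671 models. No member shares exon bases with another model on its strand.

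From these counts, 1 fit of all libraries was made in edgeR 4.0.16 under R 4.3.3 (genes kept by filterByExpr, TMM scaling, robust quasi-likelihood, 12 residual degrees of freedom), with Benjamini-Hochberg adjustment over 14080 genes and calls at an adjusted p under 0.05. The script was tested on simulated data. A floor of 3 counts equals 0.258 to 1.24 CPM. Alternatives were other scalings and filters, DESeq2 1.42.0, limma voom 3.58.1, fits of 1 cell type, replicate blocks and left-out libraries. Correlations used log2(CPM + 0.5).

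The members, the lists and the tests were chosen with earlier results of these data known. Named besides the members were up to 6 further melanocyte genes with the smallest adjusted p in the CD8 deletion, and the 10 genes most like the summed level. Equal replicate numbers may pair libraries: by the rule that every pair's deviations correlate above 0.1, only treated CD8 and CD4 libraries are paired (lowest r = 0.103). Deficient libraries fell short of this rule (lowest r = 0.0934), though 6 of 6 correlated best with their own number. The main fit used no pairing. Sequences are those of RefSeq (GRCm38.p6).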

Additional observations from a re-analysis of the deposited data

How the results depend on the processing

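Values of single genes under other settings covered all 10 genes in comparisons within a cell type, and Gpnmb and Mitf in the others. Of these 1214 values 1042 kept their direction and side of the threshold, 74 lost a call, 74 gained one and 24 changed sign. The other 8 genes also changed sign for CD8 against CD4 in floxed mice when single libraries were left out (Tyrp1 from -1.09 to 1.38). The number of the 10 genes called was 3 (CD8 deletion), 3 (CD4 deletion) and 0 (CD8 against CD4, floxed) without the libraries over 5% ribosomal, an alternative added after the data were seen. Fits of 1 cell type called 2 (CD4 deletion), 1 (CD8 blockade) and 3 (CD8 treated against floxed). Without a filter on low counts, 10 were called for the CD8 blockade, 10 for the CD4 blockade, 10 and 8 for treated against floxed CD8 and CD4 cells, 6 for CD8 against CD4 (floxed) and 2 for the deletion difference, and the cause was not tested. Limma voom called 7 (CD8 blockade) and 2 (CD4 treated against floxed), DESeq2 called 2 (CD8 treated against floxed), and total count scaling called 0 (CD8 against CD4, floxed). The shares of all genes called under these other settings are not given here. These counts therefore do not show whether the 10 genes stood out from all genes there. With the replicate block within each cell type, 4 were called for the CD4 deletion and 1 for CD8 against CD4 (floxed), and the replicate block pairing CD8 with CD4 libraries, also added later, called 1 for the deletion difference (Mitf, 1.77, adjusted p = 0.000147 by edgeR). Equal numbers do not pair libraries across conditions (r from -0.182 to 0.184). Without Gpnmb and Mitf the floxed CD8 sum was 131.3 CPM. Leaving out each library in turn gave 4 to 10 calls (CD8 deletion), 0 to 8 (CD4 deletion), 0 to 4 (CD8 blockade and CD4 treated against floxed), 0 to 1 (CD8 against CD4, floxed) and 0 for the other comparisons.

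Small values changed sign. The median over the 10 genes was 0.23 with limma voom for CD8 against CD4 in floxed mice and 0.02 without the ribosomal libraries in treated mice. For the deletion difference it was -0.66 with limma voom and -0.01 with the pairing block. For the blockade difference it was -0.09 with total count scaling, -0.06 with limma voom, -0.13 with the block within cell types and -0.06 with the pairing block. Gpnmb's blockade difference was -0.04, 0.00, -0.20 and -0.03 under these 4 settings. Mitf was at 0.02 with total count scaling (CD8 against CD4, deficient), and without the ribosomal libraries Gpnmb was at 0.15 (CD8 against CD4, treated) and Mitf at 0.15 (blockade difference). With single libraries left out, the medians ran from -1.21 to 1.44 (CD8 against CD4, floxed), -1.37 to 0.66 (treated), -1.81 to 0.90 (deletion difference) and -1.02 to 1.02 (blockade difference). In treated against floxed CD4 cells Mitf ran from -0.94 to 0.11 and Gpnmb from -0.14 to 0.81. For CD8 against CD4, Gpnmb ran from -0.53 to 0.01 (deficient) and -1.01 to 0.38 (treated), and Mitf from -0.29 to 0.15 and -1.42 to 0.30. For the blockade difference Gpnmb ran from -0.76 to 0.62 and Mitf from -1.31 to 0.39. The causes were not tested. Total count scaling shifted the median of all genes by -0.23 in the CD8 blockade, and libraries of 3.2 M counts limit genes such as Slc24a5 and Mlana, whose floor of 3 counts there is 1.24 CPM.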
